A study of Oryctolagus cuniculus with 54 samples.

Results

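The 150 genes described here were chosen as low in the rabbit lung at gestational day 28. They had to be higher at gestational days 20 and 23 and at 6 and 11 days after term birth. They were selected on 17 libraries of sequencing run 3. Each gene's level was the mean of log2(CPM + 1) over the animals of a group, where CPM is the gene's count scaled to a library of 1000000 counts. The level had to be at least 2.6 at F20, F23, T37 and T42, and genes were then ranked by the lowest of these 4 levels minus the level at F28. Of 29587 gene identifiers in the table, 7910 reached the minimum and 2093 of them had a positive rank value. The 150 members had rank values of 0.72 to 5.78 (median 0.91), and 55 exceeded 1 on the log2 scale. These values describe the choice, and none of them was tested. At the edge of the list, the last 2 members had values of 0.7274 and 0.7245, and the first 2 genes left out had 0.7244 and 0.7243, so the boundary separated near-equal genes. The F28 value rested on 2 animals, numbers 2 and 7, and 132 of the 150 genes were also chosen when CPM was scaled by TMM factors.

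The mammalian lung branches into epithelial tubes in the pseudoglandular phase, widens and becomes vascularised in the canalicular phase, forms terminal sacs in the saccular phase and divides them by secondary septa in the alveolar phase. In the rabbit the saccular phase closes shortly before term, and the first breath falls between the fetal and the postnatal samples. A pup delivered before term breathes air with lungs that are still saccular. Genes with a low around this period are therefore of interest in both term and preterm pups.

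Lung RNA came from 45 New Zealand White rabbits, sequenced as 54 libraries in 3 runs with a kit that samples the 3′ end of messenger RNAs, and each pup of a time point had a different dam. Fetal pups were taken by C-section at gestational days 20 (F20, 4 animals), 23 (F23, 4), 25 (F25, 3), 27 (F27, 3), 28 (F28, 3) and 29 (F29, 3). Term pups were born naturally on day 31 and stayed with their mothers in room air; they were sampled at birth (T31, 6 animals) and 4 (T35, 3), 6 (T37, 4) and 11 days later (T42, 3). Preterm pups were delivered by C-section on day 28, kept in room air and sampled about an hour later (P0), after 3 days (P3) or after 7 days (P7), with 3 animals each. The paper states that preterm pups received milk formula and that term pups were reared by their mothers. None carried a genetic change, and the only drug given to the pups themselves was the pentothal sodium overdose that euthanized all of them. Before the C-section of the fetal pups, dams received medetomidine, ketamine and xylazine and then pentothal sodium. Term pups were born naturally, so fetal and term groups also differ in this exposure. F20 and F23 were whole lungs and the other samples were right lungs. Run 1 held F25 to T35, run 2 the P0 and P3 pups with 2 animals each of P7, F28 and T35, and run 3 all F20, F23, T37 and T42 pups with some animals of F25, F28, T31, T35 and P7. In all, 6 animals were sequenced in more than 1 run and gave 15 libraries. Libraries held 5771693 to 8073755 counts, and the median member count in a library was 138. The table lists Ensembl identifiers without symbols and 0 of them could be matched to one, so members are named by identifier, their roles and sequences are not given, and the lung label could not be checked against cell type markers. In whole lung, fewer cells of a type and less RNA per cell cannot be told apart.

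In the libraries that the choice used, the median over the 150 members was 4.80 ± 0.16 at F20 (SD, n = 4), 4.45 ± 0.17 at F23 (n = 4), 3.14 ± 0.04 at F28 (n = 2), 4.37 ± 0.12 at T37 (n = 4) and 4.31 ± 0.03 at T42 (n = 3). The remaining run 3 libraries were not used by the rule, and they lay below the 4 groups that it required to be high. The median was 3.55 in the F25 animal, 3.78 ± 0.29 at T31 (n = 3), 3.62 ± 0.11 at T35 (n = 2) and 3.70 in the P7 animal. Within run 3 the members were thus low in the F25, F28, T31, T35 and P7 libraries, and high at both ends of the series. The choice required the high ends, so a lower level in other libraries follows from it in part and was not tested. Run 3 held no F27 or F29 library, and the F25 and P7 values come from 1 library each. Its F25, F28 and T35 animals had also been sequenced in run 1, whereas those of F20, F23, T37 and T42 had not. For these groups age and repeated sequencing cannot be told apart. The T31 and P7 pups, low as well, were in run 3 alone. The lower of F20 and F23 exceeded the F25 animal by a median of 0.96 (log2) over the members, against 0.01 over all 7910 rankable genes, and the lower of T37 and T42 exceeded T35 by 0.67 against 0.01. Both differences include libraries on which the members were selected and are given without a test.

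**Figure D1:**
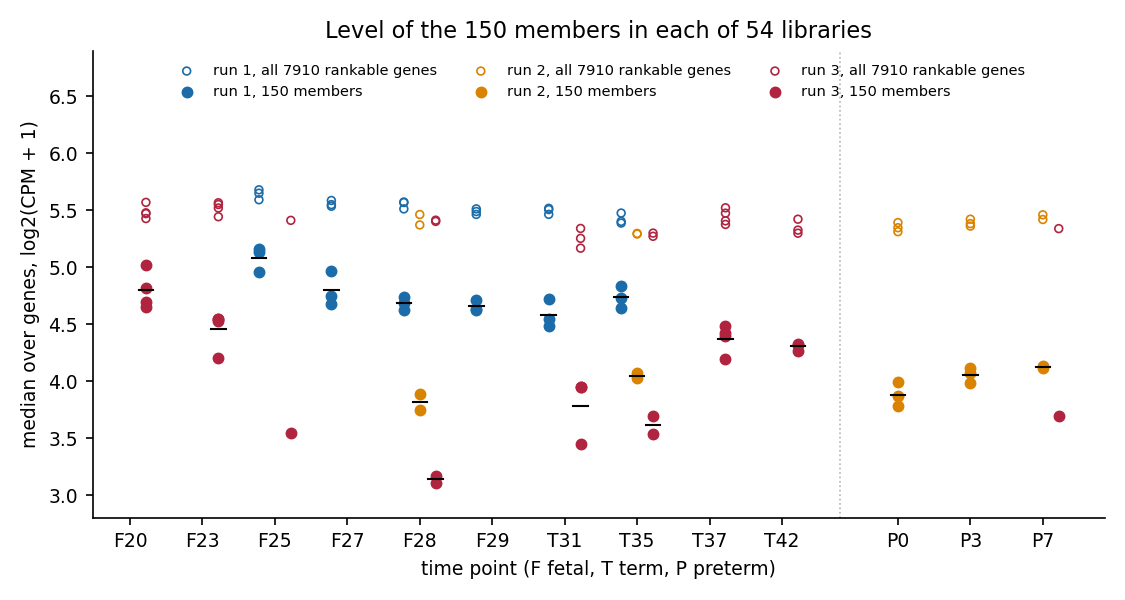
Median over the 150 members (filled) and over the 7910 rankable genes (open) in each of 54 libraries, in log2(CPM + 1), by time point and sequencing run; black lines mark group means. At F28 the members averaged 4.68 (run 1), 3.82 (run 2) and 3.14 (run 3), whereas the rankable genes stayed between 5.17 and 5.68 in every library.

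In run 1, whose libraries the choice did not use, the members' median fell after F25 and did not clearly recover by T35. The F28 group of run 1 held animals 2 and 7, whose run 3 libraries gave the F28 value of the choice. Its level, and the count of members lowest at F28, are therefore not independent of the choice. The members' median was 5.08 ± 0.11 at F25, 4.80 ± 0.15 at F27, 4.68 ± 0.06 at F28, 4.66 ± 0.05 at F29, 4.58 ± 0.12 at T31 and 4.74 ± 0.09 at T35 (SD, n = 3 each). All 3 F25 libraries lay above all 3 F29 libraries, while T31 and T35 overlapped F29. Member by member, F25 exceeded F29 by a median of 0.38 (log2), against 0.13 over the rankable genes, and 125 members (83.3%) were higher at F25, against 64.9% of rankable genes. T35 exceeded F29 by a median of 0.08, against -0.06, and 83 members were higher at T35. The lower of F25 and T35 minus F29 was above 0.5 in 18 members (12%), against 1.66% of rankable genes, and its median over the members was -0.05. In all, 67 members were below both F25 and T35 at F29, or 44.7% of the list, against 26.1% of rankable genes. With TMM-scaled CPM, the member median at F25 exceeded that at F29 by 0.32 rather than 0.43, and that at T35 exceeded F29 by 0.17 rather than 0.08. The time point with the lowest group mean was T35 for 50 members (33.3%, against 37.2% of rankable genes), T31 for 32 (21.3% against 16.7%), F28 for 30 (20% against 9.20%), F29 for 26 (17.3% against 12.7%), F27 for 8 (5.33% against 6.92%) and F25 for 4 (2.67% against 17.3%).

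**Figure D2:**
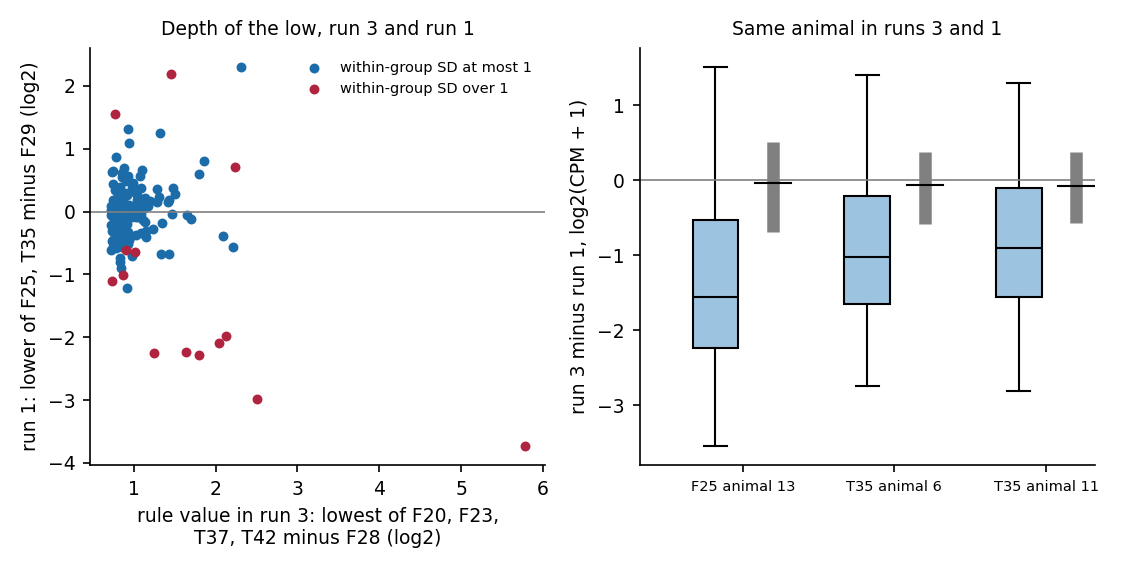
Left, each member's rank value in run 3 (x axis, log2) against the depth of its low in run 1, the lower of F25 and T35 minus F29 (y axis, log2), with the 14 members whose SD within groups exceeded 1 in red. Right, run 3 minus run 1 in the same animal, in log2(CPM + 1); boxes show the other 136 members (median, quartiles, whiskers to 1.5 times the interquartile range, points beyond) and grey bars the quartiles and median of the rankable genes. The box medians were -1.56, -1.03 and -0.90, and those of the rankable genes lay between -0.07 and -0.03.

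The members' level also differed between runs in the same animals. In the 3 animals that were sequenced in runs 1 and 3 and were not used by the rule, the median member was lower in run 3 by 1.42 (F25 animal 13), 0.96 (T35 animal 6) and 0.84 (T35 animal 11) on the log2 scale. Of the 150 members, 104 (69.3%) were lower in run 3 in all 3 animals, against 41.5% of rankable genes. With run and animal as terms over 10 libraries of 4 animals that the rule did not use, the fourth being F28 animal 9, which was in runs 1 and 2 only, edgeR's quasi-likelihood test called 75 members lower in run 3 than in run 1 and 11 higher. A call here and below means a fold change above 2 with a Benjamini-Hochberg adjusted p of at most 0.05 over all genes tested. Of all genes tested, 15.1% were called lower and 9.74% higher. Run 2 was intermediate, with 45 members called lower than in run 1 and 10 higher, against 11.8% and 7.35% of all genes. F20, F23, T37 and T42 were sequenced in run 3 alone, so their higher level cannot be set against run 1 or run 2 libraries, where the run and the age cannot be told apart.

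Of the members, 14 varied so much between animals of one time point that their SD within groups exceeded 1 on the log2 scale, a limit set after their values were seen. ENSOCUG00000027399, which ranked first, had 0.14 CPM in both F28 libraries of run 3. It was at 1.17 and 1.19 CPM in the same animals in run 1, but at 458 CPM in the third F28 animal, number 9. The gene was nearly absent, with 1 to 7 counts, in 9 libraries of 4 animals, F28 animals 2 and 7, T35 animal 11 and P7 animal 4. The other 45 libraries held at least 154 counts, and no animal changed side between runs. The 2 animals that represented F28 in its rank value were both in the nearly absent state, and the third F28 animal was not.

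ENSOCUG00000029102, which ranked second, also had 2 separate states. It measured 8.80 to 11.05 (log2) in 29 libraries of 23 animals and 0.74 to 4.03 in 25 libraries of 22 animals, and 0 of the 6 animals with several libraries changed side. At F28, animals 2 and 7 were in the low state (0.67 and 0.85 CPM in run 1) and animal 9 in the high state (613 CPM). The high state was found in 3 of 4 animals at F20, 1 of 4 at F23, 1 of 3 at F25, 2 of 3 at F27, 2 of 3 at F29, 0 of 6 at T31, 3 of 3 at T35, 1 of 4 at T37 and 2 of 3 at T42. Among preterm pups it was found in 2 of 3 at P0, 3 of 3 at P3 and 2 of 3 at P7. Across the 54 libraries 10 rankable genes, this gene included, had a Pearson correlation of at least 0.9 with it, and 7 of the 10 were members. The points share depth and run, and several come from the same animal. The 7 members together took 4.97% to 9.22% of all counts in high-state libraries and 0.911% to 3.02% in low-state libraries. Most of this came from 1 of the 7, ENSOCUG00000029084, which took 3.70% to 7.82% of counts in high-state and 0.895% to 3.01% in low-state libraries. The other 6 took 0.484% to 2.26% and 0.00329% to 0.0261%. ENSOCUG00000029084 correlated with ENSOCUG00000029102 at 0.94 but was abundant in both states (13.13 to 14.88 and 15.18 to 16.25, log2), and its SD within groups of 0.90 left it outside the 14. All 3 genes and the SD limit were singled out after the values were seen, and what distinguishes the animals was not tested. Whether these identifiers belong to multi-copy or polymorphic loci, whose reads the counting could split, was not tested, since no annotation was used here.

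**Figure D3:**
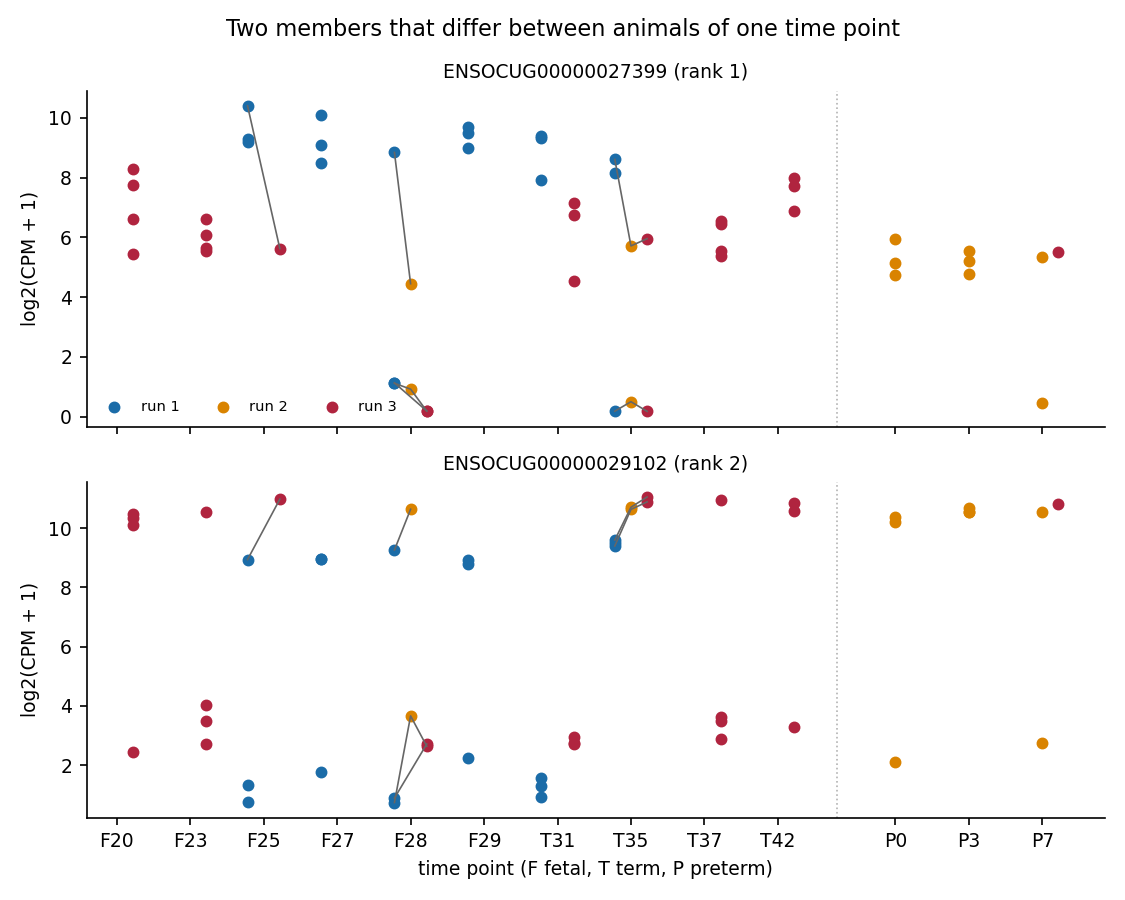
Level of ENSOCUG00000027399 (top) and ENSOCUG00000029102 (bottom) in each library, in log2(CPM + 1), by time point and coloured by sequencing run; grey lines join libraries of one animal. The top gene stayed under 1.14 in every library of 4 animals and the bottom gene left a gap between 4.03 and 8.80, which no line crosses.

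In run 1, F28 animals 2 and 7 were below animal 9 by a median of 4.67 (log2) in the 14 members and by 0.01 in the other 136. The 14 were picked for their spread, so the contrast is a description, and the 136 include ENSOCUG00000029084. Members called in the group comparisons below all belonged to these 136 genes.

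From F25 to F29 in run 1, 9 members fell and 1 rose, against 2.99% and 4.42% of all genes tested, in the same fit of 18 run 1 libraries that gave every run 1 comparison. ENSOCUG00000017262 fell most clearly. It measured 292, 281 and 295 CPM in the F25 animals and 52.4, 57.8 and 63.6 CPM in the F29 animals, so the groups were far apart. The log2 fold change was -2.23 ± 0.50 (SE, adjusted p = 0.00646, edgeR). F29 was not the low of this gene in run 1. The T31 pups had 28.8, 20.6 and 28.9 CPM, a further change that was not called, and the T35 pups 27.5, 15.5 and 105 CPM. In F25 animal 13 the same gene was at 281 CPM in run 1 and 30.7 CPM in run 3, a larger gap than that between the ages.

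ENSOCUG00000007765 was at 89.9, 19.2 and 18.9 CPM at F25 and at 8.38, 9.17 and 6.81 CPM at F29. The groups did not overlap, but the F25 mean rested on animal 3. The log2 fold change of -2.27 ± 0.70 (adjusted p = 0.0410, edgeR) became -1.12 without that animal. The call was lost in 4 of the 6 fits with 1 animal left out (adjusted p = 0.103 to 0.312, edgeR) and with limma-voom (adjusted p = 0.114). The member that rose, ENSOCUG00000029089, went from 6.06, 9.51 and 7.24 CPM to 17.2, 20.2 and 13.6 CPM, a log2 fold change of 1.24 ± 0.37 (adjusted p = 0.0350, edgeR), and it was at 10.6 to 15.8 CPM at F28 in run 1. This call was lost in 4 of the 6 fits with 1 animal left out, with log2 fold changes of 1.08 to 1.25 there (adjusted p = 0.0749 to 0.131, edgeR). Without F29 animal 7, 3 members in all were called in this comparison.

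No member was called between F29 and birth at term. T31 against F29 gave 0 members called higher and 0 lower by edgeR, against 0.0342% and 0.00685% of all genes. At an unadjusted p under 0.05 there were 30 members, limma-voom called 0 and DESeq2 called 7. The T31 pups were spread out. ENSOCUG00000015320 had 57.7, 71.3 and 16.9 CPM in the run 1 animals 1, 10 and 15, and 32.4, 36.3 and 7.06 CPM in the run 3 animals 4, 11 and 18. The lowest T31 pup in run 1 lay within the F29 range of 9.69 to 17.2 CPM and the others above it. ENSOCUG00000000721 had 7.56, 29.6 and 4.30 CPM in run 1 and 5.57, 29.5 and 0.991 CPM in run 3, so 1 pup of 3 in each run was high. Without T31 animal 15, edgeR called 9 members between T31 and F29.

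By T35, 7 members had risen from F29 and 0 had fallen, against 1.53% and 1.27% of all genes. ENSOCUG00000015320 measured 17.2, 11.3 and 9.69 CPM at F29 and 108, 114 and 93.2 CPM at T35. Its log2 fold change was 3.15 ± 0.36 (adjusted p = 1.93e-04, edgeR), and it was 2.99 to 3.40 with 1 animal left out. The gene had been at 24.8, 21.7 and 20.7 CPM at F25, and the change from F25 to F29 was not called (log2 fold change -0.73 ± 0.35, adjusted p = 0.200, edgeR). ENSOCUG00000001353 went from 5.32, 7.64 and 4.84 CPM at F29 to 28.6, 56.7 and 32.1 CPM at T35, a log2 fold change of 2.82 ± 0.35 (adjusted p = 2.91e-04, edgeR). Unlike ENSOCUG00000015320 it was still at 5.19 to 7.74 CPM in the run 1 pups at T31.

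A low with both sides called in run 1 was seen in ENSOCUG00000022908 and ENSOCUG00000010618, which were picked after their values were seen. They are 1.33% of the members, and 16 of the 14600 genes tested (0.110%) were called on both sides. Both comparisons share the F29 animals, so a low F29 value enters each of them. ENSOCUG00000022908 had 77.6, 52.2 and 54.9 CPM at F25, 21.9, 6.27 and 10.6 CPM at F29 and 122, 63.3 and 39.0 CPM at T35. It fell by 2.17 ± 0.51 from F25 to F29 (log2, adjusted p = 0.00887) and rose by 2.64 ± 0.51 from F29 to T35 (adjusted p = 0.00643, edgeR). F28 (11.7, 12.5 and 24.4 CPM) and T31 (9.19, 17.3 and 7.83 CPM) were low too. In run 3 it had 90.2 to 814 CPM at T37, and 814 CPM came from 1 animal.

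ENSOCUG00000010618 had 20.1, 16.9 and 14.3 CPM at F25, 5.96, 5.50 and 7.57 CPM at F29 and 19.2, 19.3 and 11.8 CPM at T35. It fell by 1.34 ± 0.30 (log2, adjusted p = 0.00722) and then rose by 1.497 ± 0.30 (adjusted p = 0.00798, edgeR). Its level depended on the run, since T35 animal 6 gave 19.3 CPM (run 1), 6.88 CPM (run 2) and 4.86 CPM (run 3).

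In the preterm pups of run 2, the members' median was 3.88 ± 0.11 at P0 (n = 3), 4.06 ± 0.07 at P3 (n = 3) and 4.12 ± 0.01 at P7 (n = 2; SD). The F28 fetuses of the same run were at 3.82 ± 0.10 (n = 2) and the T35 pups at 4.05 ± 0.03 (n = 2). These fetuses were animals 2 and 9, and animal 2 also entered the F28 value of the choice in run 3. F28 levels and counts of run 2 are therefore not independent of the choice. Member by member, P3 exceeded P0 by a median of 0.06 (log2), against 0.01 over the rankable genes, and P7 exceeded P0 by 0.09, against 0.05. The library medians at P7, 4.12 and 4.13, were above all 3 at P0 (3.78 to 3.99), a difference of means of 0.24 ± 0.06 (SE), or 0.20 with TMM-scaled CPM. The median over the rankable genes was higher at P7 too, at 5.44 against 5.35 at P0. In the edgeR fit the median log2 fold change from P0 to P7 was 0.02 over the members and -0.01 over all genes tested. F28 was the lowest time point of run 2 for 43 members (28.7%, against 15.2% of rankable genes), P0 for 38 (25.3% against 21.9%), T35 for 25 (16.7% against 38.2%), P3 for 22 (14.7% against 12.9%) and P7 for 22 (14.7% against 11.7%).

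From P0 to P3, 6 members rose and 0 fell, against 1.83% and 0.689% of all genes. From P0 to P7, 12 members rose and 0 fell, against 3.09% and 1.17%. Without P3 animal 1 the first count was 3, and without P7 animal 3 the second was 7. Both comparisons use the same P0 animals. ENSOCUG00000015320 had 8.85, 9.71 and 11.8 CPM at P0, 62.4, 58.5 and 74.5 CPM at P3 and 50.4 and 79.6 CPM at P7. It rose by 2.65 ± 0.20 by P3 (log2, adjusted p = 7.27e-05) and by 2.62 ± 0.22 by P7 (adjusted p = 2.90e-05, edgeR). The P0 level lay near the F28 fetuses of run 2 (11.2 and 14.6 CPM), and the P3 pups were of the gestational age of the T31 newborns.

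ENSOCUG00000000721 had 6.92, 5.94 and 9.67 CPM at P0, 40.3, 40.9 and 38.3 CPM at P3 and 28.9 and 27.2 CPM at P7. It rose by 2.38 ± 0.16 by P3 (log2, adjusted p = 3.87e-05, edgeR), and the 3 P3 animals were close to each other. ENSOCUG00000001353 was called at P7 but not at P3, and P7 was not tested against P3. It had 5.39, 7.15 and 6.06 CPM at P0, 21.8, 6.18 and 15.2 CPM at P3 and 54.1 and 26.7 CPM at P7, with log2 changes of 1.17 ± 0.42 by P3 (adjusted p = 0.135) and 2.62 ± 0.44 by P7 (adjusted p = 0.00317, edgeR). The third P7 pup, animal 1, was sequenced in run 3 alone and was in no test of preterm pups. It had 9.26 CPM of ENSOCUG00000001353, near the P0 values, and 39.98 CPM of ENSOCUG00000015320 and 17.5 CPM of ENSOCUG00000000721, above them; its age and its run cannot be told apart.

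In total, 4 members were higher both at T35 than at F29 and at P7 than at P0, comparisons with no library in common. They were ENSOCUG00000015320, ENSOCUG00000001353, ENSOCUG00000000721 and ENSOCUG00000006348, or 57.1% of the 7 members that rose at term and 33.3% of the 12 that rose in preterm pups. Of 13395 genes tested in both fits, 86 (0.642%) were higher in both comparisons, against 2.67% of the members; these 86 were 38.6% of the genes that rose at term and 20.9% of those that rose in preterm pups. ENSOCUG00000006348 had 24.5, 24.8 and 31.2 CPM at F29 and 92.3, 53.2 and 65.1 CPM at T35 (log2 fold change 1.49 ± 0.28, adjusted p = 0.00532). It had 17.4, 17.8 and 15.6 CPM at P0 and 63.3 and 87.2 CPM at P7 (2.09 ± 0.19, adjusted p = 5.0e-05, edgeR), and 85.5 CPM in the P7 pup of run 3. In all 4 genes the groups did not overlap in either comparison.

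**Figure D4:**
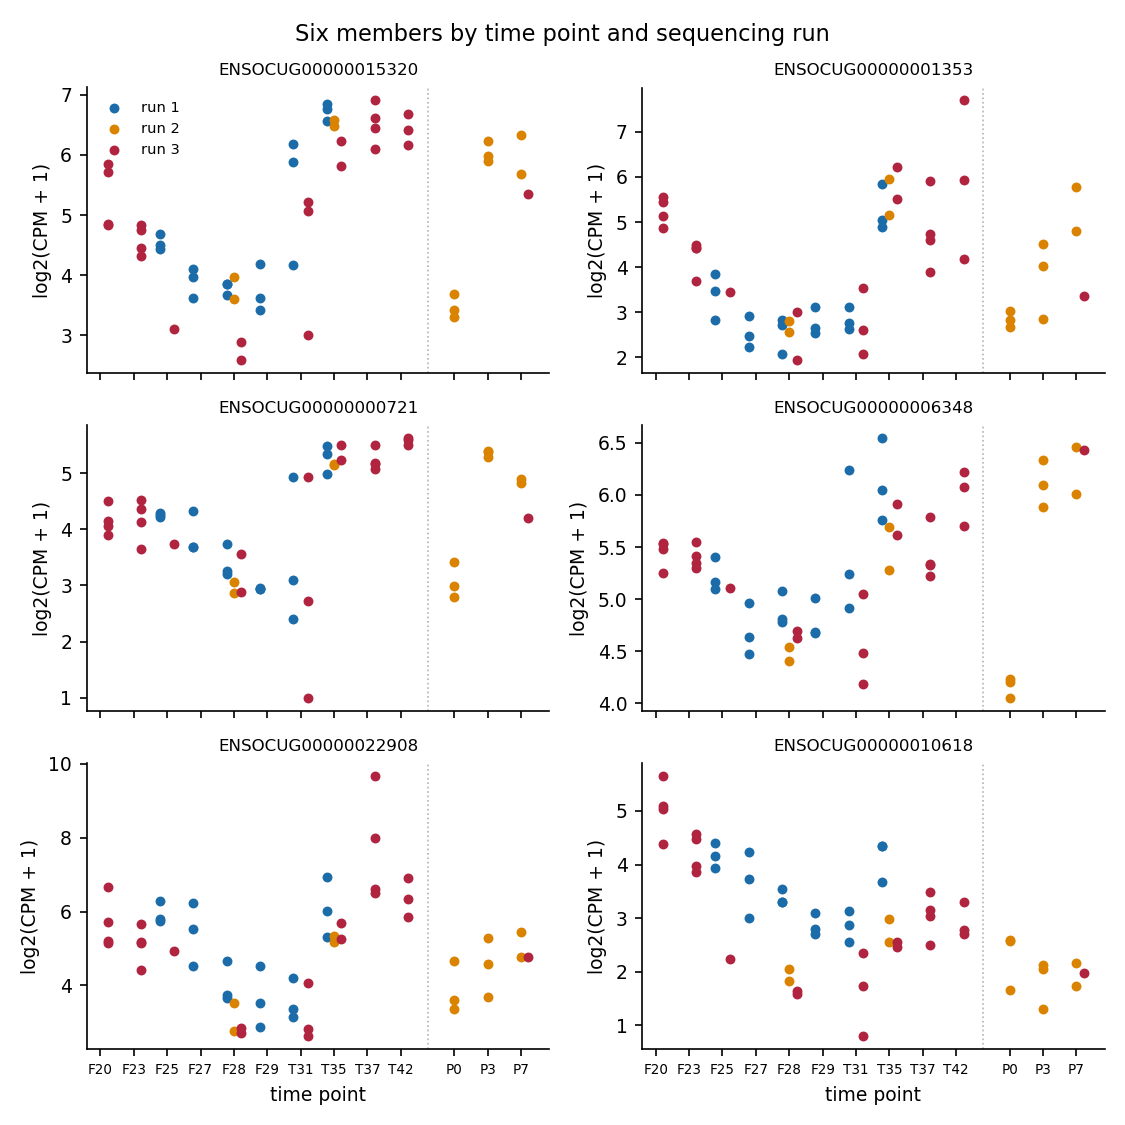
Level of 6 members in each library, in log2(CPM + 1), by time point and coloured by sequencing run. The upper 4 genes were higher at T35 than at F29 and at P7 than at P0, and the lower 2 were lower at F29 than at both F25 and T35 in run 1; ENSOCUG00000010618 was lower in runs 2 and 3 than in run 1 at T35.

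The P7 pups had the gestational age of the T35 pups, and the comparison within run 2 set them side by side at that age. The groups also differ in days after birth (7 and 4), delivery, feeding and care, so preterm birth cannot be told apart from these. By edgeR 0 members were called higher and 0 lower at P7 than at T35, against 0.435% and 0.058% of all genes. At an unadjusted p under 0.05 there were 20 members, and limma-voom and DESeq2 each called 0. With 2 animals a group this does not show that the members were alike. ENSOCUG00000015320 was at 94.9 and 88.3 CPM at T35 and 50.4 and 79.6 CPM at P7, a log2 difference of -0.62 ± 0.22 (adjusted p = 0.292, edgeR). The change from P0 to P7 minus that from F29 to T35 was tested over the 30 libraries of runs 1 and 2, which come from 26 animals. It was called higher in 0 members and lower in 0, against 0.125% and 0.0721% of all genes, by edgeR. There were 17 members at an unadjusted p under 0.05, limma-voom called 0 and DESeq2 called 2. With 1 library per animal edgeR again called 0, with 17 at an unadjusted p under 0.05. For ENSOCUG00000015320 this difference was -0.53 ± 0.46 and for ENSOCUG00000006348 0.59 ± 0.37 (log2, adjusted p = 0.668 and 0.522, edgeR).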

How the data were processed

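Total RNA of rabbit lungs was sequenced with QuantSeq FWD libraries in 3 runs. The authors used BBduk for adapter trimming, STAR for alignment to the OryCun2.0 genome and HTSeq-count with an Ensembl annotation extended for unannotated 3′ UTRs. Tool versions were not given in the sources used here. The deposited values are whole-number counts per gene without normalization. A count was 0.124 to 0.173 CPM, intervals would cover counting error only, and 2 of 8100 member values were 0. Groups, animals and runs came from the labels, and the animal was the replicate.

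Levels were log2(CPM + 1). Group tests used edgeR 4.0.16 (quasi-likelihood, TMM, R 4.3.3) within 1 run, for genes at 0.5 CPM or more in at least 3 libraries. All 150 members passed this filter in every fit. limma-voom (limma 3.58.1), DESeq2 1.42.0, RLE size factors, no filter, lists of 100 or 200 members, a replicate block and each animal left out were alternatives. The same-animal comparison of runs, the exclusion of variable members and 1 library per animal were added after seeing the data. Named identifiers were up to 2 called members in each direction with the largest fold change among those whose groups did not overlap; others are stated as picked later. The members and lists were chosen with earlier results of these data known. Lists of marker and pathway genes could not be applied without symbols. The procedure was also run on simulated comparisons with 200 planted genes each, and the outcome is not given here. Plots were made in Python 3.11.15 (matplotlib 3.10.9).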

Additional observations from a re-analysis of the deposited data

Results flagged for a closer look

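Among the groups of 4 animals (F20, F23 and T37), 39 sets of values were examined for an animal standing apart from the other 3. Such an animal was found in 8 sets. Chance gives about 1 in 20 for a single set chosen beforehand. The sets overlap and include ENSOCUG00000029102, which was singled out after its values were seen. The 8 sets are therefore a description and are not set against that rate. Of these, 6 follow the 2 states of ENSOCUG00000029102 and its companions. The gene was at 2.46 (log2(CPM + 1)) in F20 animal 1 against 10.10 to 10.48 in the others, at 10.54 in F23 animal 40 against 2.70 to 4.03, and at 10.95 in T37 animal 27 against 2.89 to 3.64. The share of all counts taken by the 150 members was likewise 1.81% in F20 animal 1 against 7.81% to 8.999%, 7.80% in F23 animal 40 against 1.49% to 1.91%, and 9.87% in T37 animal 27 against 1.92% to 2.17%. The remaining pair came from F23 animal 23, with a member median of 4.21 against 4.52 to 4.54 and ENSOCUG00000001353 at 3.69 against 4.43 to 4.50.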

How the results depend on the processing

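Of 130 alternative values of counts and levels, 113 stayed within the limits set for them (within 1.5 times for counts). From F25 to F29 the adjusted p alone called 22 members and a list of 100 members 6; leaving out 1 animal gave 3 to 9, with 3 without F29 animal 7. From F29 to T31, DESeq2 called 7, no filter 1, and leaving out 1 animal 0 to 9, with 9 without T31 animal 15. From F29 to T35, DESeq2 called 12, the adjusted p alone 11, and leaving out 1 animal 6 to 9. From P0 to P3, no filter gave 11, a list of 100 members 3, and leaving out 1 animal 3 to 7, with 3 without P3 animal 1. From P0 to P7, leaving out 1 animal gave 7 to 13, with 7 without P7 animal 3. For P7 against T35, no filter gave 2, and for the difference of changes DESeq2 gave 2. The calls between runs moved to 75 to 90 (run 3) and 48 to 64 (run 2) with 1 animal left out. With TMM-scaled CPM the member median at F25 minus F29 was 0.32 in place of 0.43, T35 minus F29 0.17 in place of 0.08, and P7 minus T35 turned from 0.075 to -0.0199; the causes were not tested. Of 92 alternative values of named genes, 9 lost their call, all from F25 to F29 (4 of ENSOCUG00000029089 and 5 of ENSOCUG00000007765), and 0 changed sign. P0 shares 2 labelled numbers with P3 and 2 with P7; the sources give different dams within a time point and do not say whether a number links time points. Deviations of same-numbered pups correlated at 0.05 to 0.34, and with a replicate block 4 members were called at P3 and 11 at P7. The other groups compared share fewer than 2 numbers.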
